A study of Homo sapiens with 40 samples.

Results

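The 10 acute-phase genes SAA1, SAA2, SAA4, CRP, HP, ORM1, ORM2, HAMP, LBP and ITIH4 were followed by name through the expression tables of differentiated HepaRG cells, a hepatic line grown as a mixture of hepatocyte-like and primitive biliary cells. They were 10 of the 56568 gene names in these tables, all 10 were found, and all had values above 0 in at least 1 library. The level of a gene is its FPKM (fragments scaled to transcript length and to the mapped fragments of the library) summed over the transcripts with its name. The 40 libraries formed 8 groups of 5, and 1 of the groups was the solvent control. PCB 126, a dioxin-like polychlorinated biphenyl, was given at 1 µM, 10 nM or 100 pM. The herbicide glyphosate was given at 0.1 g/L, 1 mg/L or 10 µg/L. Roundup, a commercial herbicide based on glyphosate, was given at 1 level only, 10 µg/L. Every group, the control included, was kept from day 8 to day 14 in medium with 2% fetal bovine serum and 1% DMSO. All groups came from 1 cell line, and nothing in the labels says whether the libraries of a group were separate cultures, so the p-values measure the spread between these libraries only. The same 5 control libraries served all comparisons with control, which were therefore not independent of each other.

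The acute-phase response is the change in plasma protein synthesis that the liver makes during inflammation. Interleukin-6 acts through its receptor IL6R, the shared subunit IL6ST and the transcription factor STAT3, and interleukin-1 acts through NF-kB and C/EBP factors. SAA1, SAA2 and CRP are the classical strongly inducible genes, whereas SAA4 is made constitutively. HP encodes haptoglobin, which binds free haemoglobin, ORM1 and ORM2 encode the orosomucoids, and LBP encodes the protein that hands bacterial lipopolysaccharide to CD14. ITIH4 is a heavy chain of the inter-alpha-trypsin inhibitor family. HAMP encodes hepcidin, the hormone that restrains iron export, and it is controlled by BMP and SMAD signalling as well as by STAT3.

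RefSeq (GRCh38.p14) promoter windows were at hand for 5 of the 10 genes, which were SAA4, CRP, ORM1, HAMP and ITIH4. SAA1, SAA2, HP, ORM2 and LBP had no entry. The upstream sequences of CRP, ORM1 and SAA4 are shown because these genes had the lowest p at 1 µM PCB 126 below, although only ORM1 passed there. Each starts 250 bases before the RefSeq start and stops where the deposited gene model begins, and capitals mark a match to the C/EBP letters TTGCNNAA on either strand.
CRP, chr1:159714590-159714839, minus strand: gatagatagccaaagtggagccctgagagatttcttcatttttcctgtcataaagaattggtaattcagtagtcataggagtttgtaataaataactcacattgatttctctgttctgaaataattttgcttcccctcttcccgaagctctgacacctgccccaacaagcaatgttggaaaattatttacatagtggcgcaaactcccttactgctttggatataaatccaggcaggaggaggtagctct
ORM1, chr9:114322848-114323055, plus strand: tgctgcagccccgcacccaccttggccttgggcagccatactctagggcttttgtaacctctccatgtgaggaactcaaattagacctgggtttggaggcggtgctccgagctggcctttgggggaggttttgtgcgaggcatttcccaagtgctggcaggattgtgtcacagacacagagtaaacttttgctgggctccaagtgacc
SAA4, chr11:18236894-18237052, minus strand: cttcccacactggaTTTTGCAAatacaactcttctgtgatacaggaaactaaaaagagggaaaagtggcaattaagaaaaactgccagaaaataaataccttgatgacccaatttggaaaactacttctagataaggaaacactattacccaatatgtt
Each window of 250 bases was searched on both strands for TTGCNNAA, for the STAT letters TTCNNNGAA, for the NF-kB consensus, for the BMP element GGCGCC and for GCGTG, the core letters bound by the aryl hydrocarbon receptor. CRP and ORM1 held none of the 5. SAA4 held 3 matches to TTGCNNAA, starting 236, 69 and 54 bases before the RefSeq start, of which the first is in the stretch printed. HAMP held 1 STAT match at 93 bases and 1 BMP element at 105 bases before the start, and ITIH4 held 1 STAT match at 74 bases. Of 35116 RefSeq windows of this length, 9.05% held TTGCNNAA, 6.57% TTCNNNGAA, 1.73% the NF-kB consensus, 16.4% GGCGCC and 32.2% GCGTG. A match is a description of the letters and not of binding.

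The cultures carried hepatocyte markers and a part of the biliary markers in every group. Of 10 hepatocyte markers, 1 had a median under 1 FPKM in control, which was TAT (tyrosine aminotransferase) at 0.572. Of 8 biliary and progenitor markers, 4 had a median under 1 FPKM in each group. In control these were KRT7, EPCAM, CFTR and PROM1, with medians from 0 to 0.737 FPKM. In control libraries ALB (albumin) stood at 11206 ± 1483 FPKM (SD, n = 5) and the biliary keratin KRT19 at 303 ± 85.6. The summed level of the 10 hepatocyte markers was 13103 to 19309 FPKM in the control libraries and 5386 to 13341 at 1 µM PCB 126. Most of this sum was ALB and SERPINA1 (mean 4210 FPKM in control), which are also on the lists of acute-phase genes. The summed level of 8 mesenchymal markers was 41.05 to 91.9 FPKM in control and 50.8 to 190 at 1 µM. The 8 macrophage and leukocyte markers summed to 2.4 to 7.7 FPKM in control and 3.1 to 4.7 at 1 µM, with VSIG4 at 0 in all 10 of these libraries and PTPRC at no more than 0.029. By the study's alignment summary, 9 libraries had more than 30% of read pairs aligned to several places, of which 2 were of 1 µM PCB 126, 2 of 10 nM, 2 of Roundup and 1 each of control, glyphosate 10 µg/L and glyphosate 0.1 g/L. Without these 9, ORM1 at 1 µM, described below, had an adjusted p of 0.056 (limma). The summed FPKM of named genes in the 9 ranged from 186215 to 253442, against 263117 to 450655 in the others, of which 2 had no entry in that summary. In bulk RNA, fewer cells of a type and less RNA per cell cannot be told apart.

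FPKM takes transcript length into account, but the order of genes given here is that of their named transcripts only, and unnamed transcripts of the same loci, described below, can change it. In the control group the medians of 5 libraries fell in the order ORM1 (423), HP (209), ORM2 (130), LBP (86.9), ITIH4 (40.5), SAA1 (12.02), CRP (11.7), SAA2 (8.06), SAA4 (7.48) and HAMP (0.022). By mean level HP ranked 27th and ORM1 ranked 33rd among the 37703 genes above 0 in a control library. All neighbours in this order overlapped between libraries apart from SAA4 and HAMP. HAMP was at or near 0 throughout: it was listed at 0 in 19 of the 40 libraries and its highest value was 0.175 FPKM, in 1 library of glyphosate 10 µg/L. HAMP did not pass the filter on low values (variance of FPKM above 1) in either table, so 9 of the 10 genes entered the fits across genes.

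**Figure D1:**
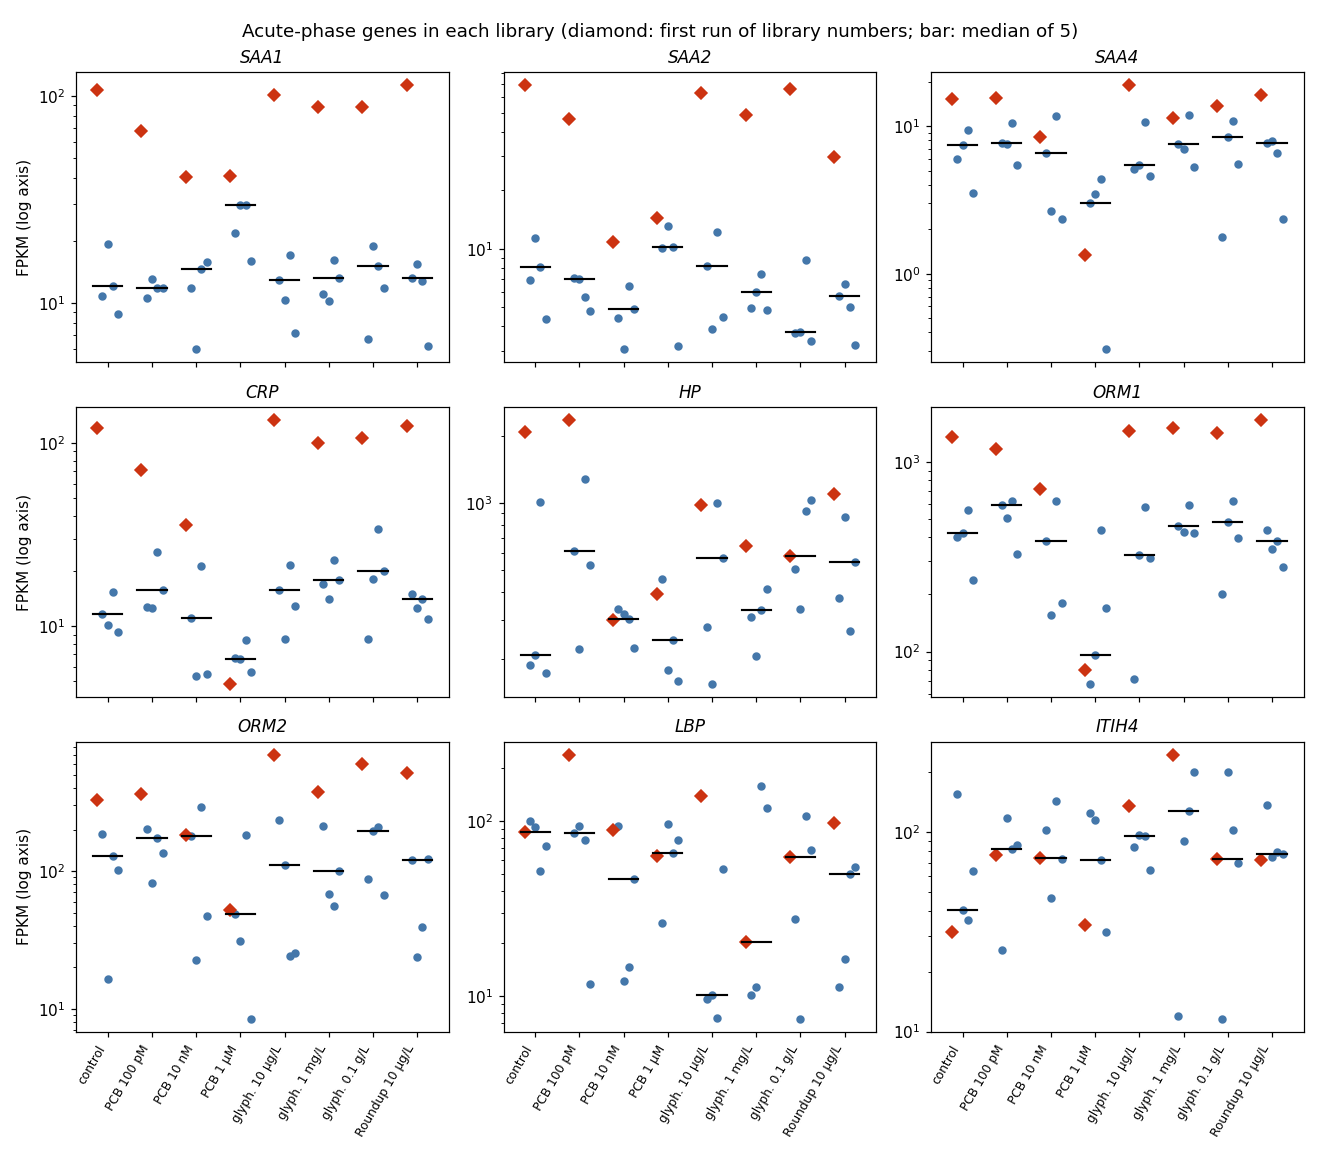
FPKM of the 9 acute-phase genes that passed the filter, on log axes, in the 5 libraries of each of 8 groups, with a bar at the median. Diamonds mark the library of each group with the lowest library number: for SAA1, SAA2, CRP, ORM1 and ORM2 they stand above all other libraries in the control, glyphosate and Roundup groups, and at 1 µM PCB 126 the CRP diamond is the lowest of its group.

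Within groups, the spread of the inducible genes followed the library numbers of the labels. These numbers form 5 runs, each with 1 library of every group, and the labels do not say what a run is. In the first run, SAA1 stood at 106 FPKM in the control library and at 87.9 to 113 in the 5 libraries without PCB 126, against 6.17 to 19.2 in the 20 such libraries of the other runs. SAA2 stood at 29.6 to 69.4 against 3.22 to 12.2. CRP stood at 100.1 to 134 against 8.46 to 33.9. ORM1 stood at 1361 to 1669 against 71.5 to 624, and ORM2 at 328 to 698 against 16.5 to 236. So the first-run values of these 5 genes did not overlap with the rest in the groups without PCB 126. SAA4, HP, LBP and ITIH4 did overlap. Of 12761 genes with a mean of at least 1 FPKM in these 25 libraries, 218 (1.71%) had all first-run libraries above all others, and 1 gene had them below.

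For CRP, ORM1, SAA1 and SAA2 the first-run libraries of the PCB 126 groups stood lower than the first-run control. At 100 pM the first-run library was higher than that control for ORM2 (364 against 328 FPKM), HP (2356 against 2090.0), LBP (239 against 86.9), ITIH4 (76.5 against 31.5) and SAA4 (15.5 against 15.3). CRP was 120.31 FPKM in the first-run control library, 71.4 at 100 pM, 35.5 at 10 nM and 4.82 at 1 µM. ORM1 was 1361, 1167, 721 and 79.7 in the same order, and SAA1 was 106, 67.8, 40.5 and 41.1, so that CRP and ORM1 were lowest at 1 µM while SAA1 was about level between 10 nM and 1 µM. These are single libraries and carry no test. The share of multiply aligned pairs was above 30% in the first-run library of 1 µM and in none of the other 7 libraries of that run, and its part in this order was not tested.

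Other genes of the response shared the first-run pattern. Of 18 other positive acute-phase genes with a mean of at least 1 FPKM, 5 had all first-run libraries above all others in the groups without PCB 126. The iron-binding protein gene LCN2 was 122 to 139 FPKM against 7.78 to 26.1, and the protease inhibitor gene SERPINA3 was 240 to 266 against 57.03 to 142. CP (ceruloplasmin), HPX (hemopexin) and FGB (fibrinogen beta chain) were the others. Of 25 genes of IL-6 and IL-1 signalling and feedback, 6 did so, which were SOCS1, SOCS3, CEBPB, CEBPD, FOS and JUN. SOCS3, the feedback inhibitor that STAT3 induces, was 24.2 to 28.2 FPKM against 0 to 8.05. None of the 8 receptor genes and neither of the 2 inflammatory ligands at this level did so. IL6 itself was 0.339 to 0.869 FPKM in the first run against 0.041 to 0.575. None of 9 hepatocyte markers, 4 biliary markers or 6 mesenchymal markers stood above in this way. The genes named in this paragraph were chosen from the fixed lists after their values were seen.

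FPKM of a named gene also depends on how StringTie divided a locus between named transcripts and assembled transcripts without a name. The unnamed ones took a median of 81.2% of the fragments over ORM2, 58.6% over ITIH4, 53.9% over ORM1, 52.4% over LBP and 43.6% over HP. They took 8.65% over CRP and 17.7% over SAA2, and none over SAA1, SAA4 and HAMP. Over LBP that share ranged from 0 to 95.3% between libraries. All transcripts of a locus were therefore also summed as FPM (FPKM times transcript length, that is, fragments scaled to the mapped fragments of the library but not to length), which joins ORM1 with ORM2, HP with HPR and SAA2 with SAA4. The ITIH4 locus also holds MUSTN1, TMEM110, TMEM110-MUSTN1 and AC006254.1, and the LBP locus also holds AL391095.2. Sums over these loci are therefore not of ITIH4 or LBP alone. On this scale the LBP locus (chromosome 20, 38346356 to 38377023, GRCh38) showed the first-run pattern too, at 618 to 688 FPM against 104 to 323. The HP and HPR locus was 2283 to 3262 against 486 to 1752, and the ORM1 and ORM2 locus was 2646 to 3007 against 434 to 1251.

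**Figure D2:**
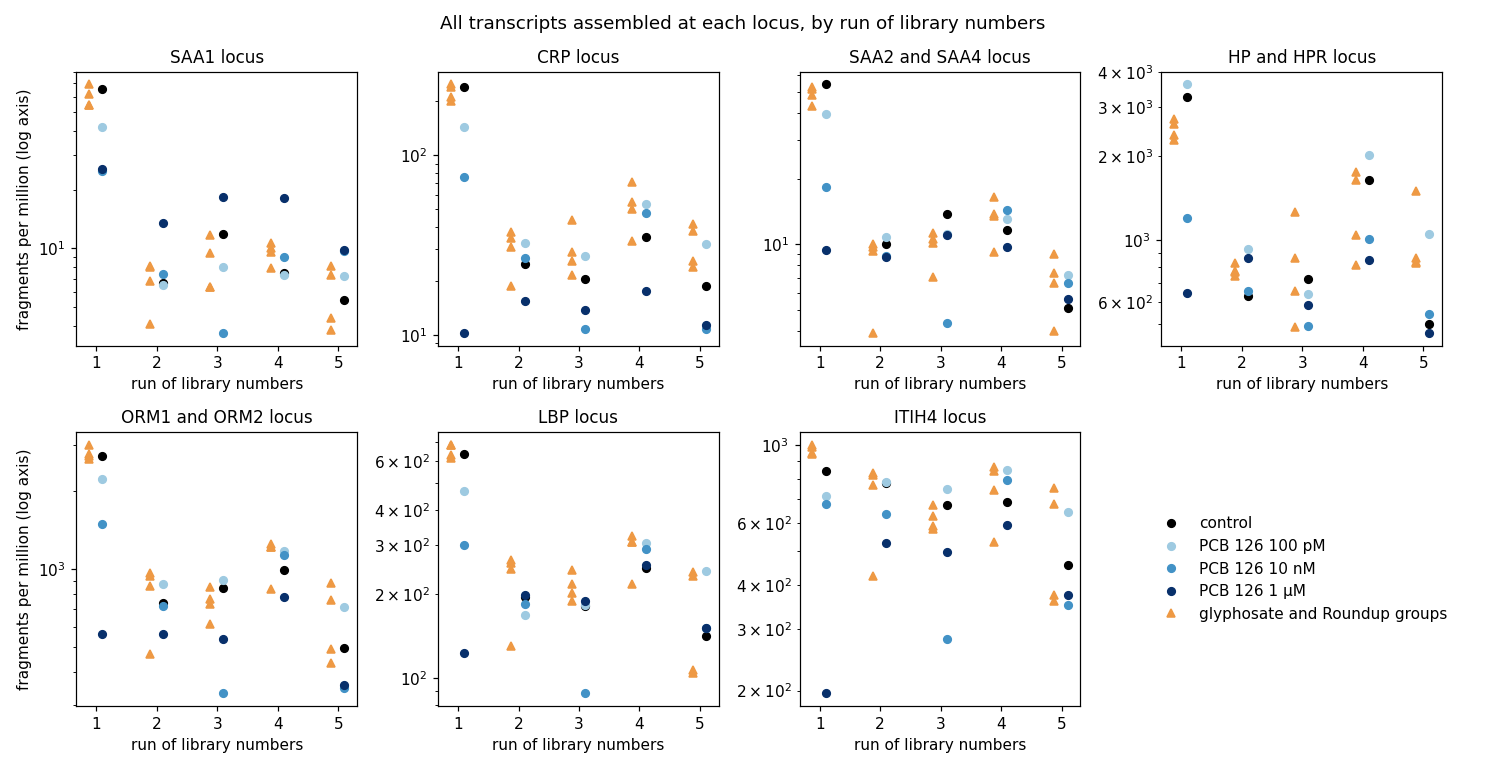
FPM (fragments scaled to library size) of all transcripts assembled at 7 loci, on log axes, against the run of library numbers, with 1 library of each of 8 groups in every run. In the first run the control, glyphosate and Roundup libraries stand above those of the other runs for 6 loci and overlap with them for ITIH4, and the 1 µM library of that run stands at 10.3 for CRP against 241 in control.

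The first question was how 1 µM PCB 126 changed these genes. ORM1 fell in its named transcripts, while its whole locus did not pass. CRP lay below control in every library without passing the test across genes, and SAA1 and SAA2 were inside the control range or close to it. ORM1 (chromosome 9, 114323056 to 114326475) was 1361, 400.06, 423, 562 and 238 FPKM in the control libraries and 79.7, 67.3, 95.6, 436.5 and 169 at 1 µM. Of the 5 treated libraries 4 lay below the lowest control and 1 lay inside the control range. The difference was -1.92 ± 0.51 on the log2(FPKM + 1) scale (SE, n = 5 per group; limma, adjusted p = 0.0456). ORM1 was the 1 gene of the 9 tested that passed. Its call did not hold for the sum of ORM1 and ORM2, whose near-identical sequences can exchange reads (-1.77 ± 0.50, limma, adjusted p = 0.0675). Nor did it hold for all transcripts of their common locus (-0.83 ± 0.38, adjusted p = 0.253). That locus held 560, 563, 539, 782 and 358 FPM at 1 µM, against 2721, 743, 842, 993 and 496 in control. The part that the division between named and unnamed transcripts had in the ORM1 values was not tested. Over all 9755 genes tested, 1.87% passed in this comparison, 63 higher and 119 lower (1.22%), a split that quantile normalization moved to 532 higher and 553 lower. The median difference over all genes was -0.26, and -0.12 after scaling of each library to its 75th percentile, where ORM1 differed by -1.76 ± 0.48 (adjusted p = 0.0331). Without the first run ORM1 differed by -1.38 ± 0.48 (adjusted p = 0.286). The call rests on single libraries: it was lost when any of control replicates 1 to 4 or any of 1 µM replicates 1, 2, 3 and 5 was left out, and was kept without control replicate 5 or 1 µM replicate 4.

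CRP (chromosome 1, 159712289 to 159714589) was 120.31, 11.7, 10.2, 15.4 and 9.30 FPKM in control and 4.82, 6.72, 6.60, 8.38 and 5.62 at 1 µM. The groups did not overlap, and all 5 treated libraries were lower than the lowest control. In this comparison 1.64% of all genes tested were lower without overlap. The difference was -1.42 ± 0.57 (limma, adjusted p = 0.250), with an exact permutation p of 0.00794, the smallest that 252 splits allow, and 0.539 after adjustment over all genes. Without the first run it was -0.68 ± 0.35. The CRP locus as a whole was 241, 25.01, 20.5, 35.0 and 18.9 FPM in control and 10.3, 15.5, 13.8, 17.7 and 11.3 at 1 µM, again without overlap. It differed by -1.45 ± 0.49 (limma, adjusted p = 0.0812), where 3.5% of all loci passed as lower. With the replicate number as a block, a fit added after the values were seen, its adjusted p was 0.0143 (limma). The labels do not say whether these numbers pair libraries, so the call of the locus depends on that choice.

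SAA4 (chromosome 11, 18231349 to 18236893), the constitutive member of its family, was 15.3, 5.97, 7.48, 9.43 and 3.50 FPKM in control and 1.33, 3.03, 3.47, 4.39 and 0.307 at 1 µM. Of the treated libraries 4 lay below the lowest control. The difference was -1.45 ± 0.41 (limma, adjusted p = 0.0679; exact permutation p = 0.0159, 0.669 adjusted). After scaling to the 75th percentile it was -1.35 ± 0.38 with an adjusted p of 0.0384 (limma). SAA4 passed in 7 of the 17 alternatives other than leaving out 1 library, so its call depends on the processing. It also passed without control replicate 5 or 1 µM replicate 4.

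The other genes did not pass. ORM2 differed by -1.32 ± 0.73 (adjusted p = 0.435), with controls from 16.5 to 328 FPKM and treated libraries from 8.46 to 183. The whole ORM1 and ORM2 locus held 496 to 2721 FPM in control and 358 to 782 at 1 µM. HP differed by -0.71 ± 0.59 and LBP by -0.37 ± 0.59.

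SAA1 stood on the other side of 0. It was 106, 10.8, 19.2, 12.02 and 8.79 FPKM in control and 41.1, 21.8, 29.7, 29.6 and 15.9 at 1 µM, so that the treated libraries of the last 4 runs were 15.9 to 29.7 against 8.79 to 19.2. The difference was 0.45 ± 0.55 (adjusted p = 0.706) and 0.89 ± 0.31 without the first run (adjusted p = 0.286). SAA2 differed by -0.31 ± 0.57, and by 0.16 ± 0.34 without the first run. ITIH4 differed by 0.26 ± 0.45 in named FPKM. Its whole locus, which holds other named genes too, differed by -0.72 ± 0.31 (limma, adjusted p = 0.195). There the groups ran from 456 to 841 and from 196 to 590 FPM. HAMP was 0 to 0.125 FPKM in control and 0 to 0.0914 at 1 µM, and its exact permutation p was 1.00.

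**Figure D3:**
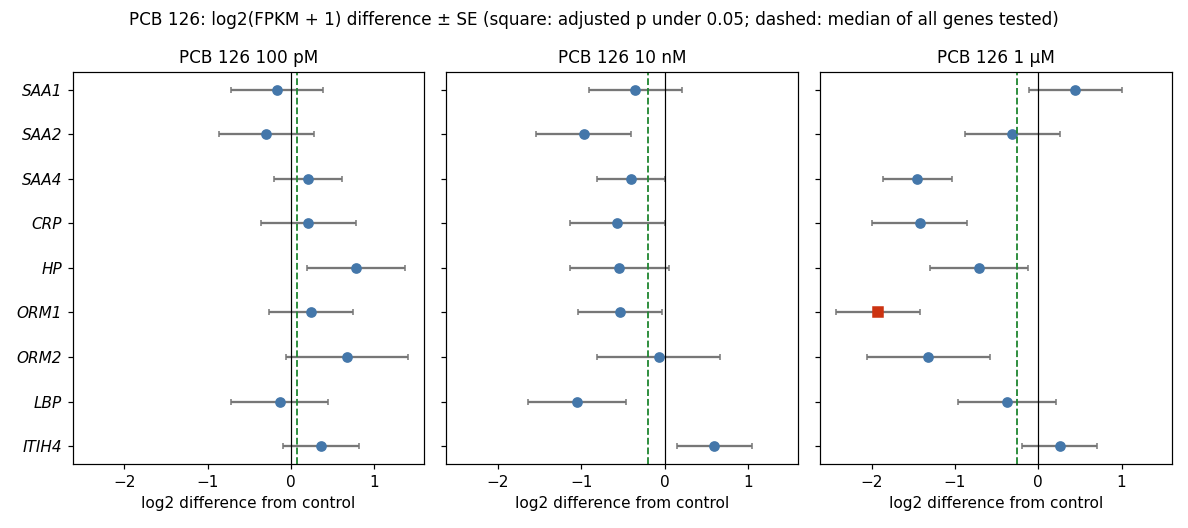
Difference from control in log2(FPKM + 1) with its standard error (n = 5 per group) for 9 acute-phase genes at 3 concentrations of PCB 126. ORM1 at 1 µM, at -1.92, is marked as passing the adjusted threshold. The dashed line is the median of all genes tested, at -0.26 for 1 µM, and SAA1 and ITIH4 lie to the right of 0 there.

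At the lower concentrations no acute-phase gene passed. At 10 nM, 8 of the 9 were below 0 and ITIH4 was above it, with a median of -0.53 against -0.21 over all genes; 0.205% of genes passed and the smallest adjusted p among the 9 was 0.865. CRP was 35.5, 11.05, 5.34, 21.4 and 5.503 FPKM at 10 nM and overlapped with control. At 100 pM, 6 of the 9 were above 0, with a median of 0.20 against 0.07 over all genes; limma called 0 genes in all (0%), 116 had an unadjusted p under 0.05, and none of these were among the 9. Across the 4 groups together, 1.39% of genes passed the F-test. None of the 9 did, the smallest adjusted p being 0.0687 for ORM1 and 0.111 for SAA4.

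A slope over the dose steps used all 20 libraries. ORM1 fell by 0.65 ± 0.17 per step on the log2(FPKM + 1) scale (limma, adjusted p = 0.0267) and SAA4 fell by 0.50 ± 0.14 (adjusted p = 0.0391). They were 2 of the 9 tested, and 3.78% of all genes passed, 2.86% with a lower level. CRP had a slope of -0.50 ± 0.18 (adjusted p = 0.122; it passed without control replicate 5), and its whole locus had -0.52 ± 0.16 (adjusted p = 0.0374), where 7.15% of all loci passed as lower. The ORM1 and ORM2 locus had a slope of -0.32 ± 0.12 (adjusted p = 0.0996). The call of ORM1 was lost without control replicate 1 or without any of 1 µM replicates 1, 2, 3 and 5. That of SAA4 was lost without those libraries too, and without control replicate 4, 10 nM replicate 3 or 5, or 100 pM replicate 2, 3 or 4. Without the first run, ORM1 had a slope of -0.49 ± 0.16 (adjusted p = 0.158) and SAA4 one of -0.39 ± 0.14 (adjusted p = 0.250).

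The wider response was read from fixed gene lists at 1 µM. Of 18 other positive acute-phase genes tested, 2 fell, none rose and the median was -0.77 against -0.26 over all genes. HPX, which binds free haem, fell from 239 ± 61.3 to 75.1 ± 19.9 FPKM (-1.65 ± 0.30, limma, adjusted p = 0.0027) and FGB fell from 1559 ± 477 to 638 ± 255 (-1.37 ± 0.33, adjusted p = 0.0259). C4A, a complement gene that shares reads with C4B, differed by -1.49 ± 0.40 (adjusted p = 0.0538). MBL2 (mannose-binding lectin) was at 0 in all 5 control libraries and at 0 to 2.83 FPKM at 1 µM (adjusted p = 0.0772).

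Of the negative acute-phase genes, which the liver makes less of during inflammation, all 10 had differences below 0, 4 fell and the median was -1.14. Of the 18 positive ones, 15 were below 0. APOA2 (apolipoprotein A-II) fell from 35.8 ± 8.86 to 3.09 ± 1.25 FPKM (-3.20 ± 0.42, limma). AHSG (fetuin-A), TTR (transthyretin) and SERPINA7 (thyroxine-binding globulin) fell as well, with differences of -1.84 ± 0.37 (adjusted p = 0.0057), -1.62 ± 0.34 (adjusted p = 0.0080) and -1.501 ± 0.33 (adjusted p = 0.0132). Of 3 relatives tested, ITIH2 fell by 1.27 ± 0.29 (adjusted p = 0.0157).

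Genes upstream of the response showed no call. Of 7 receptor genes and 23 signalling and feedback genes tested, none passed, with medians of -0.13 and -0.09. For their roles in the pathway and not for their values, IL6R, STAT3 and CEBPB are given here. IL6R was 9.60 ± 3.50 FPKM in control and 8.39 ± 2.40 at 1 µM, STAT3 was 23.8 ± 6.36 and 23.3 ± 6.52, and CEBPB was 21.8 ± 7.17 and 21.4 ± 4.83. Of the 23 signalling and feedback genes, 14 were below 0 and 9 above, and 1 had an unadjusted p under 0.05 (limma). Named after the values were seen, CEBPA was 14.7 ± 2.76 FPKM in control and 8.81 ± 2.70 at 1 µM. TNF was listed at 0 in all 10 libraries, and IL6 was 0.351 ± 0.232 and 0.319 ± 0.174 FPKM. Of 13 genes tested for HAMP control and iron, none passed. ID1, a target of BMP signalling, was 59.3 ± 19.9 and 26.6 ± 5.14 FPKM (-1.08 ± 0.30, adjusted p = 0.0564), and the iron exporter gene SLC40A1 was 61.6 ± 18.1 and 32.9 ± 11.9 (-0.92 ± 0.29, adjusted p = 0.112). Beside LBP, its partners TLR4 and LY96 did not pass.

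Of 10 hepatocyte markers tested, 6 were below 0 and 4 above, with a median of -0.53. The list shares ALB, APOA1 and TTR with the negative acute-phase list and SERPINA1 with the positive one. TTR fell and TAT rose by 1.48 ± 0.29 (limma, adjusted p = 0.0050). TAT was low in control, at 0.63 ± 0.16 FPKM, and 3.66 ± 1.34 at 1 µM. ALB differed by -1.08 ± 0.30 (adjusted p = 0.0564). The 4 biliary markers tested were all below 0, with a median of -0.78, and none passed. Of 6 mesenchymal markers, 3 were below 0 and 3 above. COL3A1 fell by 3.07 ± 0.38, while LUM was 50.2 ± 14.0 FPKM in control and 115 ± 57.9 at 1 µM (adjusted p = 0.180) and DCN was 4.95 ± 2.29 and 10.7 ± 2.55 (adjusted p = 0.0886). The part of these marker changes in the values of the acute-phase genes was not tested.

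Glyphosate and Roundup were compared with the same controls. No acute-phase gene passed at any dose, and limma called no gene at all (0% of 9533) in any of the 4 comparisons or across the 5 groups. Unadjusted p-values under 0.05 were held by 84 genes at 0.1 g/L glyphosate, 125 at 1 mg/L, 95 at 10 µg/L and 165 with Roundup. Among the acute-phase genes this was 1, LBP at glyphosate 10 µg/L (limma, p = 0.0303, adjusted p = 1.00; exact permutation p = 0.111).

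LBP was 86.9, 99.7, 92.4, 51.9 and 72.4 FPKM in control and 139, 9.63, 10.1, 7.47 and 53.1 at glyphosate 10 µg/L, with 3 treated libraries below all controls, a difference of -1.75 ± 0.77 (limma, as above). It was -1.17 ± 0.77 at 1 mg/L, -0.97 ± 0.77 at 0.1 g/L and -1.15 ± 0.77 with Roundup. Over the whole LBP locus these differences were 0.06 ± 0.41, 0.35 ± 0.41, 0.22 ± 0.41 and 0.00 ± 0.41 on the log2 scale. At 10 µg/L the locus held 618, 259, 190.0, 309 and 104 FPM against 635, 195, 181, 248 and 142 in control. So the fitted means of the named LBP transcripts lay below control, without passing, while those of the locus were within their error of control, and the part that the division between named and unnamed transcripts had in this was not tested.

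No strongly inducible gene passed in the 4 herbicide groups. SAA1 had medians of 13.0, 13.2 and 15.1 FPKM at the 3 glyphosate doses and 13.2 with Roundup, against 12.02 in control, and its differences lay between -0.09 and -0.03. CRP had medians of 15.7, 17.9, 20.0 and 14.0 against 11.7, with differences from 0.15 to 0.46 and standard errors near 0.73. SAA2 had medians of 8.17, 5.99, 3.75 and 5.75 against 8.06, with differences from -0.61 with Roundup to -0.14 and standard errors of 0.76. ORM1 differed by -0.47 to 0.25. These differences were smaller than their standard errors.

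Roundup was also set against glyphosate at the same 10 µg/L, a formulated product against its active ingredient. No acute-phase gene passed (0% of all genes; 121 had an unadjusted p under 0.05, none of these among the 9), and the smallest adjusted p among the 9 was 0.974. The largest difference in size was LBP at 0.59 ± 0.77, followed by SAA2 at -0.47 ± 0.76. CRP was 134, 15.7, 8.50, 21.5 and 12.9 FPKM with glyphosate and 124, 14.9, 12.6, 14.0 and 10.9 with Roundup. Missing the threshold does not show that both act alike.

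**Figure D4:**
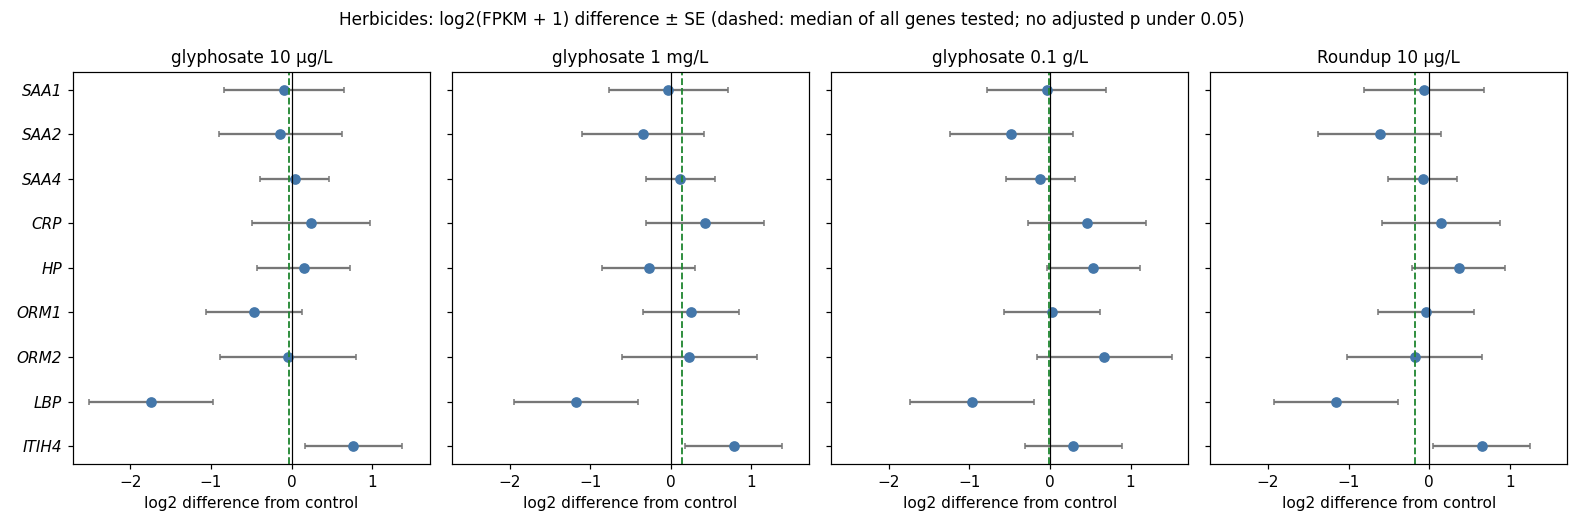
Difference from control in log2(FPKM + 1) with its standard error (n = 5 per group) for 9 acute-phase genes in the 3 glyphosate groups and the Roundup group. No gene passed the adjusted threshold, LBP lies lowest in each panel (-1.75 to -0.97), and the dashed line is the median of all genes tested.

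The genes most like the acute-phase genes were sought over all 40 libraries. The measure was Pearson's r between a gene and the mean of the 10 centred profiles, after 75th-percentile scaling, among 12636 other genes with a mean above 1 FPKM. The 5 highest were SERPINA3 (r = 0.91), the immediate-early gene FOS (0.89), the complement protease gene C1S (0.89), HLA-DRA (0.89), an antigen-presentation gene, and TRIB1 (0.88), a pseudokinase gene. Without the first run, over 32 libraries, these values were 0.58, 0.53, 0.61, 0.62 and 0.64. The points share libraries and their scaling, and the values are descriptions. SERPINA3 was 240 FPKM in the first-run control and 77.1 to 140 in the other controls, and 66.2 in the first-run library of 1 µM, the lowest of its group.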

How the data were processed

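RNA was measured in 40 rRNA-depleted libraries of HepaRG cells, in 8 groups of 5. The authors aligned read pairs to GRCh38 with HISAT2, assembled transcripts with StringTie and Ensembl release 89, and deposited FPKM per transcript in 2 tables, one for PCB 126 (20 libraries) and one for the herbicides (25), with the same 5 controls in both. Some of the deposited FPKM columns are recorded as a score only because they hold values just below 0. The FPKM tables hold no read counts, so no counting interval was made and no count test was run. An alignment summary of the study served only to pick out libraries with many multiply aligned pairs.

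Transcripts were summed per gene name after values below 0 (4 and 6) were set to 0. Genes with an FPKM variance above 1 were kept, 9755 and 9533. Each table was fitted in 1 limma model (3.58.1, R 4.3.3) on log2(FPKM + 1), which understates changes of low genes, with Benjamini-Hochberg adjustment over all genes tested and a threshold of 0.05. Exact permutation tests were two-sided over 252 splits. Scripts were tested on simulated data. The alternatives were other pseudocounts, filters, scalings, models and sets of libraries. Members and lists were chosen with earlier results of these data known. From each list up to 4 genes with the smallest p were named, and 5 genes by likeness to the members. Exceptions are stated where they occur.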

Additional observations from a re-analysis of the deposited data

Results flagged for a closer look

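In 16 of 80 groups of 5 libraries, the highest or lowest value of an acute-phase gene stood apart from the other 4 by Dixon's criterion. Chance alone meets it in about 1 group in 20 where values are independent and normally distributed. These groups share libraries and, for HAMP, hold many zeros, so that rate need not apply and the count is a description. In 10 of them it was the highest value and belonged to the first run of library numbers. SAA1 was 67.8 FPKM in replicate 1 of PCB 126 100 pM (others 10.501 to 13.0) and 87.9 in replicate 1 of glyphosate 1 mg/L (others 10.2 to 16.1). SAA2 was 46.3 and 48.6 in the same libraries (others 4.795 to 7.07 and 4.84 to 7.42). CRP was 120.31 in control replicate 1 (others 9.30 to 15.4), 100.1 in replicate 1 of glyphosate 1 mg/L (others 14.1 to 23.1) and 124 in replicate 1 of Roundup (others 10.9 to 14.9). ORM1 was 1511 in replicate 1 of glyphosate 1 mg/L (others 422 to 593) and 1669 in replicate 1 of Roundup (others 280 to 437). HAMP was 0.142 FPKM in replicate 1 of Roundup and 0 in the others.

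The lowest value stood apart for SAA2 in 1 µM replicate 5 (3.16 FPKM, others 10.1 to 14.4), for HP in 10 nM replicate 5 (224.7, others 301 to 336) and for ITIH4 in 100 pM replicate 2 (25.6, others 76.5 to 118). The remaining ones were HAMP in replicate 2 of 10 nM (0.0994, others 0 to 0.0167) and of glyphosate 10 µg/L (0.175, others 0 to 0.0132), and ITIH4 in replicate 2 of Roundup (137, others 72.5 to 79.4).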

How the results depend on the processing

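Of the 9 acute-phase genes tested, 1 (ORM1) passed at 1 µM PCB 126, 0 across the 4 PCB 126 groups and 2 (ORM1 and SAA4) over the dose steps. At 1 µM the count was 0 with a pseudocount of 0.1, no filter, a mean FPKM of at least 1, an ordinary linear model with or without a library-size term, a fit of only these groups, the most abundant transcript, without the libraries with many multiply aligned pairs, and, chosen after seeing the data, without the first run; it was also 0 with all 40 libraries in 1 fit. It was 2 with 75th-percentile scaling, quantile normalization, equal summed FPKM and array weights. Calls rose over all 9755 genes as well. From 182 in the main fit they went to 592 with 75th-percentile scaling, 1085 with quantile normalization and 889 with equal summed FPKM. The share of all genes that passed with array weights is not given here. Leaving out 1 library gave a count of 0 to 2 acute-phase genes. Across the 4 groups the count was 2 with 75th-percentile scaling, equal summed FPKM and array weights, 1 with quantile normalization, and 0 to 1 leaving out 1 library. Over the dose steps it was 0 with a pseudocount of 0.1, no filter, an ordinary linear model with or without a library-size term, the most abundant transcript, without the many-multiply-aligned libraries and without the first run, and 0 to 3 leaving out 1 library. With array weights, whose estimation did not converge for the herbicide table, 1 gene passed for Roundup against control, 1 for Roundup against glyphosate and 1 across the 5 groups. The 10 nM, 100 pM and 3 glyphosate comparisons gave 0 under every alternative run. The cause of these changes was not tested.

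With the replicate number as a block, 2 genes passed at 1 µM, 2 across the 4 groups and 3 (CRP as well) over the dose steps. Added after seeing the data, the block with 75th-percentile scaling gave 2, 2 and 3, and the block without the many-multiply-aligned libraries gave 2, 1 and 1. Over whole loci, also added then, the CRP locus passed at 1 µM with the block (adjusted p = 0.0143, limma), and the CRP, ORM1 and ORM2, and ITIH4 loci passed over the dose steps. The ITIH4 locus holds other named genes too. The share of all genes or loci that passed with the block is not given here. Same-numbered libraries had median correlations of their deviations from 0.03 to 0.12 per run, the lowest pair being -0.17. However, 25 of 40 libraries correlated best with their own run. The labels do not say what a number marks, so the main tests did not take the numbers to pair the libraries. These values do not show that the runs are unrelated, and the calls differ with the block as given above.

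Over 81 gene values and 2259 alternative values, 1978 kept direction and side of the threshold, 14 passed newly, 49 no longer passed, 218 changed sign without passing, and 0 called values turned direction.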
